A study of Homo sapiens with 2 samples.

Results

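The FOS and JUN genes encode the core proteins of AP-1, a transcription factor. Their 7 members, FOS, FOSB, FOSL1, FOSL2, JUN, JUNB and JUND, were taken by symbol from the array's probe-to-gene table with every probe set of each. All 7 were found, on 9 probe sets, among 14884 named genes of the series. RNA came from the established lung adenocarcinoma cell line A549, of human origin, after 4 h under static conditions or 4 h of stretch. Each condition was represented by 1 Affymetrix array. The label of the stretched array gives A594 as its title, and A549 as its source. How strongly, how often and on which device the cells were stretched is not given in the sources used here, and neither is how many cultures each RNA came from. Invasion and tumor necrosis factor alpha are named in the series title, and the comparison asks how transcripts differ between stretched and static cells.

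AP-1 proteins are basic leucine zipper (bZIP) proteins that bind DNA as pairs. JUN proteins pair with themselves or with FOS proteins, whereas FOS proteins need a JUN partner to bind well. FOS, FOSB, JUN and JUNB are immediate early genes: growth factors, serum or mechanical load switch them on within minutes through MAP kinases. FOS is also driven by serum response factor, and the FOS transcript is short-lived. FOSL1 (FRA-1) and FOSL2 (FRA-2) lack the strong activation domains of FOS, typically appear later, and FOSL1 is itself an AP-1 target linked to invasion in epithelial tumour cells. JUND is broadly present in resting cells.

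The start regions of the members are shown because such regions can hold some of the elements through which early genes are known to be switched on. The RefSeq promoter table (GRCh38.p14) held 6 of the 7 members. The 100 bases before each start site are given on the gene's strand, for FOS at chr14:75278728-75278827 (plus), FOSB at chr19:45467896-45467995 (plus), JUNB at chr19:12791386-12791485 (plus), JUND at chr19:18281623-18281722 (minus), FOSL2 at chr2:28392758-28392857 (plus) and JUN at chr1:58784048-58784147 (minus). Capitals mark TGACGT, the core of the cyclic AMP response element, TGACATCA, a variant AP-1 site, and TATAAA, the TATA box, on either strand.
FOS: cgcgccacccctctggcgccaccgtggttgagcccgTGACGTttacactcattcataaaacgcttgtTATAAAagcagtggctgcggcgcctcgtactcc
FOSB: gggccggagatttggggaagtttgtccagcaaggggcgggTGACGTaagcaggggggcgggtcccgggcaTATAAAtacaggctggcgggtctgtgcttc
JUNB: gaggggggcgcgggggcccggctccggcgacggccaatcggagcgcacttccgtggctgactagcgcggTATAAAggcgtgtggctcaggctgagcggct
JUND: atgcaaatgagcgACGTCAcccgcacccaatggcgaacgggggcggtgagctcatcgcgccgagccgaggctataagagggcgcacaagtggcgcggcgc
FOSL2: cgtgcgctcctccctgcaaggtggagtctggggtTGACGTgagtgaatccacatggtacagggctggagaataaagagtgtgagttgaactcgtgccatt
JUN: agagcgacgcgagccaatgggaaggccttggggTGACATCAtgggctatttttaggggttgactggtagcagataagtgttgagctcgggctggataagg

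TATAAA stood in the windows of FOS, FOSB and JUNB, with its first base at -33, -30 and -31 from the start site, and in 4.99% of all 35116 windows of this length. These 3 genes were those with a lower value on the stretched array, JUNB by only 0.45 on the log2 scale, and no window of FOSL1 was used here. TGACGT, read on either strand, stood in FOS, FOSB, FOSL2 and JUND, 4 members with differences of both signs, and in 4.25% of all windows. JUN held TGACATCA at -67, as did 1.65% of all windows. The consensus AP-1 site TGANTCA, the full element TGACGTCA (which contains TGACGT) and the CArG box of serum response factor, each searched on both strands, stood in 0 of the 6 windows, against 2.75%, 1.17% and 0.578% of all. The motifs were chosen with the sequences and values known, so how they sort by sign supports nothing. A match is not a binding site, and a window without these letters says nothing about the factor.

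Signals are log2 RMA values (robust multi-array average, a background-corrected summary over the probes of each set), and each difference is stretched minus static on that scale. The static array spanned 0.61 to 12.7, and the stretched array 0.60 to 12.6. Genes entered counts when the higher of both values was at least 2.52, the median over both arrays. This kept 10981 genes, all 7 members among them. A gene could thus pass only through the array on which it was higher. No difference has a replicate, so no test or p-value is given, and the number of arrays limits the precision. Of 38 fixed genes of unrelated tissues, 20 were measured, and 4.24, the 95th percentile of their values, was used as an upper bound for background. Of these, 2 genes differed by 2-fold. Of 4 measured keratins of simple epithelium, KRT18 (10.29 and 11.00 on the static and stretched arrays), KRT7 (5.41 and 7.56) and KRT8 (4.60 and 5.47) lay above the bound and KRT19 (3.77 and 3.78) within it, while SFTPC, NKX2-1 and NAPSA of alveolar type II cells lay within it on both. All 3 measured fibroblast and all 6 endothelial markers lay within it too. Of 4 measured leukocyte markers, CD14 (5.13 and 5.53) and CD68 (7.51 and 8.58) lay above it, and CSF1R and NKG7 within it on both arrays. The summed level of the 4 was 7.89 on the static array and 8.81 on the stretched one on the log2 scale, with CD68 its largest term. The part of such cells in the results was not tested. In RNA from whole cultures, fewer cells with a transcript and less of it per cell cannot be told apart.

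The AP-1 genes divided under stretch. The transcript signals of FOS and FOSB were at least 2-fold lower, while those of FOSL1, FOSL2 and JUN were at least 2-fold higher. JUNB and JUND lay between. Thus 3 of 7 members were at least 2-fold higher, where 12.3% of all filtered genes were, and 2 of 7 were at least 2-fold lower, where 2.5% were. At 1.5-fold, 4 of 7 were higher and 2 of 7 lower as deposited, against 27.7% and 8.9% of all filtered genes. These 1.5-fold counts depend on the scaling. JUND fell short of 1.5-fold after quantile normalization (0.18), loess (0.26) and centring on reference genes (0.44). JUNB passed 1.5-fold on the lower side under the same scalings (-0.75, -0.76 and -0.60). After quantile normalization or loess, 2 of 7 were 2-fold higher, without FOSL2, and 2 of 7 lower, against 6.48% and 4.06% of all genes with the former and 6.67% and 3.79% with the latter. FOSB alone left the lower count, at 1 of 7, after median centring (1.88% of all genes) and with probe sets averaged (2.38%). The members' median difference was 0.59, against 0.20 for all these genes, and the interquartile range of all genes ran from -0.17 to 0.65. The median of 7 hides the split, since their differences ran from -2.22 to 1.96.

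**Figure D1:**
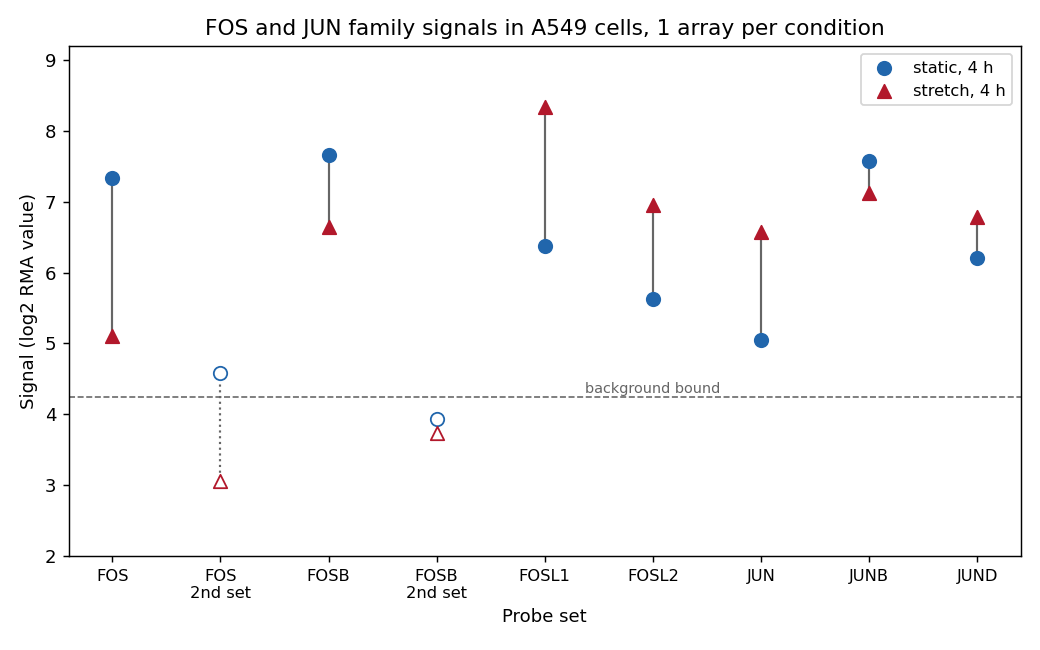
Signal (log2 RMA value, vertical axis) of each of the 9 FOS and JUN family probe sets (horizontal axis) on the static (circle) and stretched (triangle) array, 1 array each. Filled symbols are the brighter probe set of a gene, open symbols the second one of FOS and FOSB, and the dashed line is the background bound of 4.24. FOS, FOSB and JUNB are lower under stretch, and FOSL1, FOSL2, JUN and JUND are higher.

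Among the FOS genes, FOS itself, the prototype early gene whose protein is made within the first hour of a stimulus, read 7.33 on the static array and 5.11 on the stretched one with its brighter probe set, 16786587. The difference of -2.22 corresponds to a 4.66-fold lower value. Only 10 of the 10981 genes had a lower difference. Of the 1099 genes in its level range (mean signals of 6.22 to 7.17, 1 of 10 equal bins), whose median difference was 0.41 with an SD of 0.65, 2 were at least as low, FOS included.

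FOSB, which encodes a FOS protein with a truncated splice form known from persistent stimulation, read 7.66 on the static array and 6.64 on the stretched one. This is a difference of -1.02, or 2.03-fold, just past the 2-fold line. In the same level range, 19 of 1099 genes were at least as low. FOSB and FOS thus lay on the same side, FOS by more than a further log2 unit.

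FOSL1 was the member with the highest difference. It read 6.38 on the static array and 8.34 on the stretched one. The difference of 1.96 (3.89-fold) ranked 124 from the top of 10981 genes. In the brightest level bin, 8 of 1094 genes were at least as high, or 0.731%. FOSL2 went the same way, from 5.63 to 6.95, a difference of 1.32 (2.50-fold). Here 84 of 1099 genes of like level, or 7.64%, were at least as high, so that FOSL2 stood apart from genes of its level less than FOSL1 did.

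Among the JUN genes, JUN, the main partner of FOS proteins, read 5.05 on the static array and 6.58 on the stretched one, a difference of 1.53 (2.89-fold). Of 1095 genes of like level, 79 were at least as high (7.21%). JUNB, a weaker activator than JUN that can oppose it, read 7.57 and 7.12. Its difference of -0.45 was shared or exceeded on the low side by 86 of 1094 genes of like level (7.86%). JUND, which has been described as a brake on growth, read 6.20 and 6.79, a difference of 0.59 (1.51-fold) that lies at the 1.5-fold line. In its level range 422 of 1099 genes, or 38.4%, were at least as high, so JUND did not stand apart from genes of like level. Levels are not ranked between members, because signals of different probe sets cannot be set against each other.

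**Figure D2:**
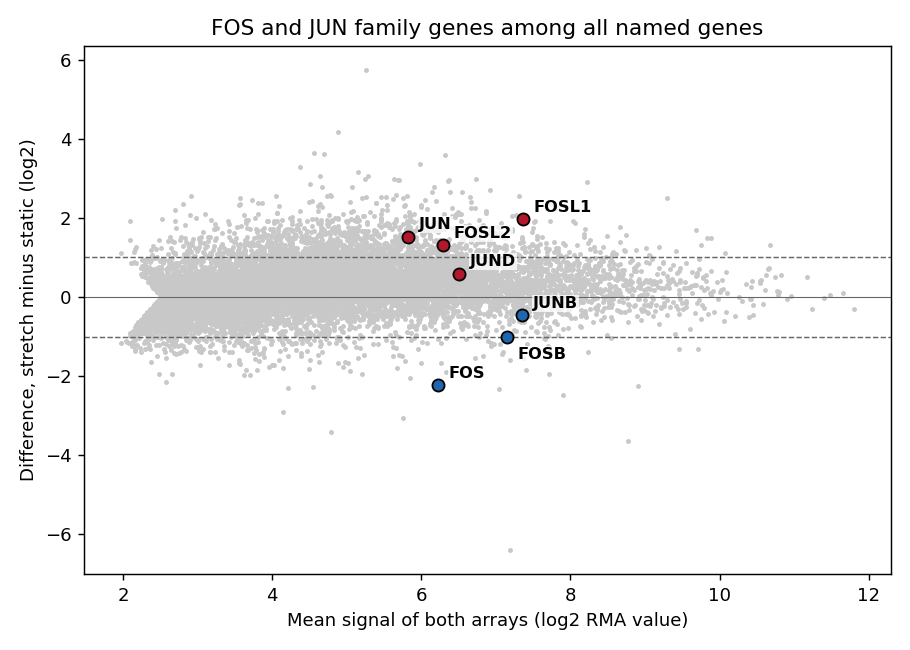
Difference between the stretched and static array (log2, vertical axis) against mean signal of both arrays (log2 RMA value, horizontal axis) for the 10981 named genes past the level filter (grey), with the 7 FOS and JUN family genes in red where higher and blue where lower. Dashed lines mark 2-fold; FOS at -2.22 and FOSL1 at 1.96 lie at the lower and upper edges of the cloud at their level.

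FOS and FOSB each had a second, dimmer probe set. For FOS, 16794955 read 4.58 on the static array and 3.06 on the stretched one (-1.52), with the stretched value within the background range. For FOSB, 16873329 read 3.93 and 3.73 (-0.20), within that range on both arrays. Both had the sign of the brighter set, but they are not a repeat measurement by design. Probe sets on this array are numbered in runs along a chromosome strand: of the named genes around the brighter FOS set in that numbering, 34 of 36 lay on the plus strand of chromosome 14, the strand of FOS, while around the dimmer set 30 of 34 lay on the minus strand. For FOSB on chromosome 19, also a plus-strand gene, the counts were 27 of 28 on the plus strand around the brighter set and 33 of 34 on the minus strand around the dimmer one. The strand that each probe set reads is not given in the sources used here. Each of the 5 other members had 1 probe set. With both sets averaged, FOS stood at -1.87 and FOSB at -0.61, the latter no longer 2-fold.

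The deposited values of the 2 arrays had different distributions, so the size of each difference depends on how they are scaled, while gaps between members depend on it much less. Adding a constant to an array leaves any gap as it is. FOSL1 exceeded FOS by 4.18 log2 units in its difference, and by 4.22 after quantile normalization and 4.21 after a loess on level. FOSL1 exceeded FOSB by 2.98, with 3.01 and 2.99 under those scalings. JUN exceeded JUNB by 1.98 (1.86 and 1.94) and JUND by 0.94 (0.93 and 0.93). Averaging the probe sets of a gene, which is not a scaling, moved the gaps to FOS and FOSB more. FOSL1 then exceeded FOS by 3.83 and FOSB by 2.57. These pairs were chosen after their values were seen. The order of the 7 members, from FOS and FOSB over JUNB, JUND, FOSL2 and JUN to FOSL1, and the sign of each were the same under all 4 other scalings. Median centring and centring on reference genes only add a constant, so the order could have changed under quantile normalization and loess alone. Loess moved the members almost alike, with FOSL2 going from 1.32 to 0.99 and JUN from 1.53 to 1.19. It therefore had little room to change their order. FOSL2 fell short of 2-fold after quantile normalization (0.92) and loess (0.99), and FOSB after median centring (-0.92).

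**Figure D3:**
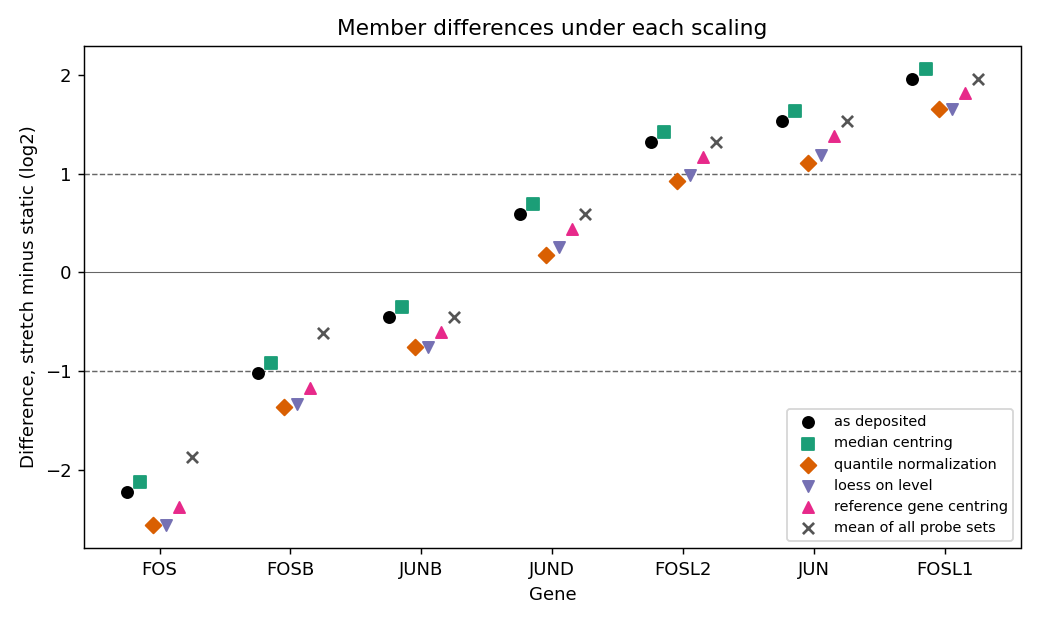
Difference between the stretched and static array (log2, vertical axis) of the 7 genes (horizontal axis) as deposited, under 4 other scalings of the arrays, and with the probe sets of each gene averaged; dashed lines mark 2-fold. The order of the genes is kept under each scaling, though the 2 centrings add a constant and cannot change it. Loess moved the genes almost alike. FOSL2 and FOSB cross the 2-fold line, and averaging both probe sets moves FOSB to -0.61.

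Genes that pair with, switch on or answer to AP-1 were examined as 8 lists, which share some members. Of the 122 list genes that passed the filter, 32 reached 2-fold on the higher side and 3 on the lower. Each list is to be read against the 12.3% and 2.5% of all genes, and against their median of 0.20. These lists, like the members, were chosen with earlier results of these data known. Counts and medians above those of all genes therefore describe the lists and support nothing further. Past the level filter of 4.24, 31 of 100 list genes were at least 2-fold higher and 2 lower. There, 18.3% of all genes were higher and 2.39% lower, with a median of 0.41.

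The ATF, CREB and JDP2 factors, bZIP proteins that pair with FOS or JUN or share their sites, had 12 of 17 genes past the filter, and 5 of them were at least 2-fold higher and 0 lower. The median difference was 0.71. ATF3, a stress-induced repressor that pairs with JUN, read 3.94 and 5.55 on the static and stretched arrays (1.61), and ATF5 read 4.15 and 5.75 (1.60). CREB5 stood at 1.33, and all 3 were at or under the background bound on the static array, and ATF4, the factor of the amino acid response, went from 7.17 to 8.20 (1.03). The fifth was JDP2, a JUN dimerization partner that represses AP-1 sites, which read 4.32 and 5.34 (1.02). It was named after its value was seen, and it is the protein-coding gene next to FOS on chromosome 14. FOS was thus lower and its neighbour higher on the same array. Among MAF, NFE2 and C/EBP factors, 11 of 23 were measured past the filter, with 2 at least 2-fold higher and 0 lower, and their median was 0.11. HLF stood at 1.35, with a static signal under the bound, NFE2L1 at 1.05, MAFG at 0.71 and NFE2L3 at 0.68.

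Of the MAP kinases and their upstream kinases, 18 of 29 passed the filter, of which 4 were 2-fold higher or more and 0 lower. Their median was 0.22, close to that of all genes. MAP2K4, a kinase of the JUN N-terminal kinases, read 3.06 and 4.99 (1.93), the static signal under the background bound, and MAP2K3, a kinase of p38, read 4.59 and 6.41 (1.82). MAP3K2 stood at 1.41. MAP2K2, a kinase of ERK, read 2.27 and 3.58 (1.31), with neither signal above the bound. MAP2K2 passed the filter only through the stretched array. Activators of FOS and JUN promoters had 11 of 18 genes past the filter, of which 1 reached 2-fold on the higher and 0 on the lower side, and a median of 0.43. That gene was the CREB coactivator CRTC3 (1.04). SRF, serum response factor, which drives FOS through its serum response element, read 6.13 and 6.96 (0.83). MEF2D (0.80) and CRTC2 (0.67) were the next largest. Genes of mRNA decay and protein turnover of AP-1, such as proteins that bind the AU-rich element of the FOS transcript, had 11 of 22 past the filter, 1 of them 2-fold higher and 0 lower, and a median of 0.30. TIA1 stood at 1.01, DET1, of the ubiquitin ligase complex that targets JUN, at 0.83, KHSRP, a decay factor, at 0.79 and AUH at -0.55.

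The other immediate early genes also had differences of both signs. Of 36, 25 passed the filter, and 7 of them were at least 2-fold higher and 1 lower. The median was 0.38, and differences ran from -1.95 to 3.59. CCN2 (3.59), DUSP5 (2.25), MCL1 (2.11) and DUSP4 (2.03) had the largest differences. The second probe sets of CCN2 and DUSP5 stood at 0.96 and -0.35. Likeness to each AP-1 member was taken as the gap in difference over the 2 arrays, and the 2 nearest early genes were named for each. EGR1, a zinc finger factor that serum response factor also controls, was the nearest to FOS, at 8.69 and 6.74 (-1.95, a gap of 0.27). NPAS4 came next with a gap of 1.42, so of these 25 early genes only EGR1 lay near FOS. Listed early genes without a named probe set and the other AP-1 members were not part of this comparison. NPAS4 (-0.80) and EGR3 (-0.48) were nearest to FOSB, and ARC (-0.43) and EGR3 to JUNB, all 3 within the background range. DUSP4 (gap 0.07) and MCL1 (gap 0.15) were nearest to FOSL1, MYC and ATF3 (gap 0.08 each) to JUN, PTGS2 (gap 0.16) and MYC (gap 0.29) to FOSL2, and DUSP6 (gap 0.12) and IER3 (gap 0.21) to JUND. With 2 arrays, such likeness rests on 1 difference per gene.

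AP-1 target genes had the highest median of the 8 lists, 0.88. Of 48, 22 passed the filter, with 9 at least 2-fold higher and 2 lower. EREG, the EGF receptor ligand epiregulin, read 6.77 and 9.67 (2.90), the monocyte chemoattractant CCL2 read 8.04 and 10.55 (2.51) and the cytokine IL11 read 3.95 and 6.46 (2.51). HBEGF, another ligand of the EGF receptor, stood at 1.94, and like IL11 had a static signal under the background bound. The 2 lower genes, SPRR1A (-1.41) and HMOX1 (-1.18), were named after their values were seen. SPRR1A, a cornified envelope protein, read 3.39 and 1.98, with neither signal above the bound. SPRR1A passed the filter only through the static array. HMOX1, heme oxygenase 1, read 7.56 and 6.38. Many genes of this list also answer to other factors. Cooperating factors of the TEAD, RUNX, SMAD, NFAT and ETS families had 14 of 19 past the filter, 4 at least 2-fold higher and 0 lower, and a median of 0.44. They were ETS1 (2.05), TEAD4 (1.59), SMAD3 (1.48) and VGLL3 (1.11), and the static values of all but TEAD4 lay within the background range.

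**Figure D4:**
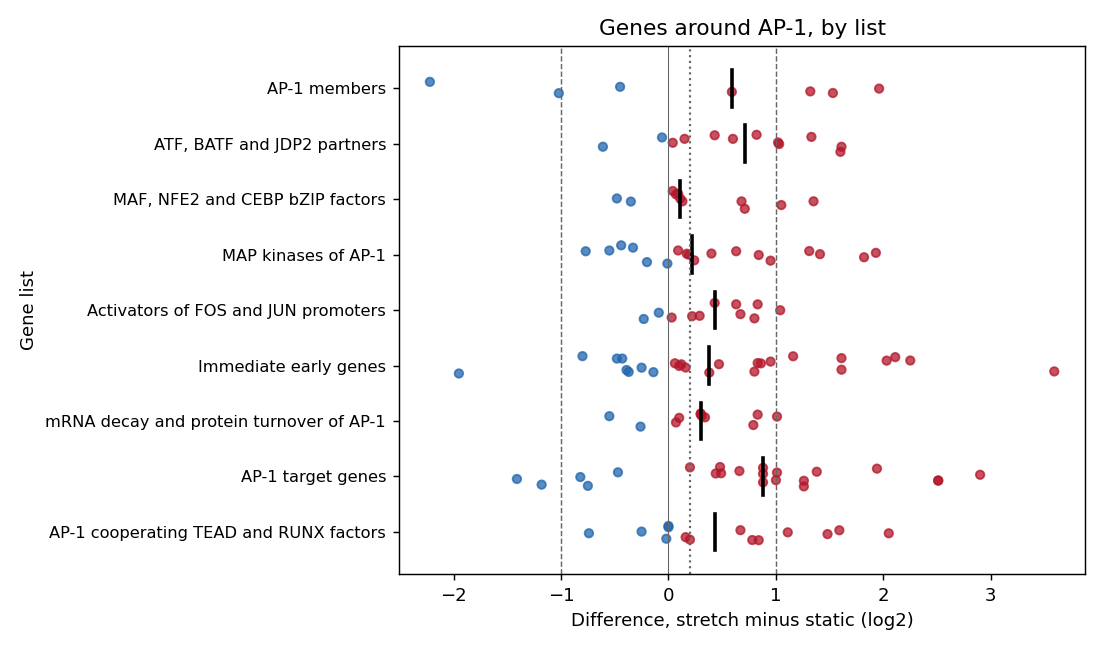
Difference between the stretched and static array (log2, horizontal axis) of each gene past the level filter in the AP-1 family and 8 surrounding lists (vertical axis); red points are above 0 and blue points at or below 0, black bars are list medians, dashed lines mark 2-fold and the dotted line is the median of all genes, 0.20. The AP-1 members run from -2.22 to 1.96, and AP-1 target genes have the highest median, 0.88.

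Genes beside the AP-1 members on the chromosome were examined up to 2 protein-coding genes to each side. Of the 28 places, 17 held a gene measured by name, all past the level filter. Of these 17, 1 was at least 2-fold higher (JDP2) and 0 lower, against 12.3% and 2.5% of all filtered genes. At 1.5-fold, 3 were higher (JDP2, NEK9 at 0.92 and C11orf68 at 0.95) and 0 lower, against 27.7% and 8.9%. The genes next to FOSL1 were CCDC85B (0.04) and C11orf68 (0.95), those next to JUNB were HOOK2 (0.01) and PRDX2 (-0.55), and those next to FOSL2 were BABAM2 (0.23) and PLB1 (-0.04). TMED10, on the other side of FOS, stood at 0.31, RTN2, next to FOSB, at -0.28, FGGY, next to JUN, at 0.24 and IQCN, next to JUND, at -0.33.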

How the data were processed

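The deposited table holds log2 values of 53617 probe sets for 2 arrays. Per the submitters' processing notes they are RMA values, with neither program nor chip definition given in the sources used here. The medians were 2.57 (static) and 2.47 (stretched), and sorted values differed by up to 0.45, so the normalization between the arrays is unknown. The platform table gave 1 symbol to 16098 probe sets and several to 0, updated by gene identifier against RefSeq (GRCh38.p14). The other 37519 are unnamed here. The probe set with the highest mean stood for the gene. The members and lists were chosen with earlier results of these data known. From each list, the 4 largest differences past the level filter were named, and for each member the 2 nearest early genes. Alternatives were 4 scalings, other level filters and thresholds, and the mean of probe sets. Scripts were tested on simulated data. Calculations used Python 3.11.15, numpy 2.4.6 and pandas 2.3.3.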

Additional observations from a re-analysis of the deposited data

How the results depend on the processing

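The sign of all 7 differences was the same under 4 other scalings and with probe sets averaged. Past 2-fold, FOS (-2.56 to -1.87), FOSL1 (1.65 to 2.06) and JUN (1.11 to 1.63) stayed. FOSB was -0.92 after median centring and -0.61 with probe sets averaged, which left 1 member at least 2-fold lower in each. FOSL2 was 0.92 after quantile normalization and 0.99 after loess. Of the genes of the 8 lists, 22 were at least 2-fold higher and 5 lower after either quantile normalization or loess, and 24 and 3 after centring on reference genes, against 32 and 3. At 1.5-fold as deposited, 55 of the 122 were higher and 9 lower, where 27.7% and 8.9% of all filtered genes were. Among all genes, 12.3% were at least 2-fold higher and 2.5% lower as deposited, 6.48% and 4.06% after quantile normalization, 6.67% and 3.79% after loess, 8.79% and 4.03% after centring on reference genes, and 15.3% and 1.88% after median centring. The 9 measured reference genes differed from -0.22 to 1.72, so that centre depends on the genes chosen. Of these 9, 2 were at least 2-fold higher and 0 lower. They were PPIA (1.72) and IPO8 (1.34, with a static signal within the background range). Both lay above FOSL2 (1.32) as deposited, and PPIA also above JUN (1.53). No paired analysis was possible because each condition has 1 array. Low signals are compressed, which limits folds from values near background.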

Other observations

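The numbering of probe sets was also examined over the whole array. Of 10568 named probe sets whose neighbours in the numbering (up to 20 to each side, at least 10 on the gene's chromosome) lay at 80% or more on 1 strand, 311 (2.94%) stood among genes of the strand opposite to their own, as the dimmer sets of FOS and FOSB do. Their median signal was 2.66, against 3.92 for the rest. In 142 cases both such a set and one among genes of its own strand passed the level filter, and the set among genes of its own strand was the brighter in 109. Where that set differed by at least 2-fold (22 cases), the opposite one had the same sign in 12 and was at least 2-fold in the same direction in 3, FOS among them. The cause was not tested.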
